A study of Apis mellifera with 6 samples.

Results

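The genes described here are 6 regulators through which 2 insect hormones, ecdysone and juvenile hormone, act on other genes: the ecdysone receptor gene EcR (Gene ID 406084, listed as Ecr), its partner Usp (409227), E75 (410309), ftz-f1 (726450), Mblk-1 (408521) and Kr-h1 (100576395). They were chosen by symbol, and all 6 symbols were found among the 11169 gene entries of the table, each on 1 entry. RNA was sequenced from honeybee (Apis mellifera) ovaries of 3 kinds, with 2 libraries each, and each library came from a separate pool of dissected ovaries. Queens were young egg layers, about 12 months old, heading their own colonies. Queen-less workers came from colonies kept without a queen for 2 to 4 weeks, until eggs laid by workers were seen, and their active ovaries had an ovary score of 3. Queen-right workers came from hives with a laying queen, and their inactive ovaries had a score of 0. All bees were female and came from the same supplier. The age of the workers and the number of bees in a pool are not given in the labels. The p-values rest on the spread between the 2 pools of a kind, combined over the 3 kinds and with that of other entries. A gene thus has the same error in all 3 comparisons, also where the pools of 1 kind lie farther apart.

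In insects, ecdysone made by steroid-synthesis enzymes is hydroxylated to its active form, which binds a receptor made of the EcR and Usp proteins. In Drosophila this receptor first switches on early genes such as E74, E75 and broad, and later genes such as ftz-f1 follow when the hormone falls. Juvenile hormone acts through another receptor, Met, and induces Kr-h1, which in several insects represses E93, the adult specifier whose honeybee counterpart is Mblk-1. In Drosophila, ecdysone signalling in the ovary is needed for follicle growth and egg production. No sequences of these genes or their promoters are shown because none were at hand for this work.

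Levels are given in RPKM, read counts divided by the length of the gene model and the mapped reads of the library. This allows genes to be compared as far as the lengths used are right. Of the 11169 entries, 8778 reached 1 RPKM in at least 2 libraries and were tested, including all 6 genes. The absolute depth is unknown, and RPKM summed to 331806 and 332091 in queens, 330953 and 336392 in queen-less workers and 385121 and 411992 in queen-right workers. Marker genes of other cells also differed between the ovaries. The summed level of 9 germline entries was 3371 and 3486 RPKM in queens, 2722 and 3047 in queen-less workers and 1209 and 1289 in queen-right workers, and 4 of the 9 were called higher in each active group, among them the germline helicase vas, while 1 was lower in queens and 2 in queen-less workers. Most of this sum came from mael in the active ovaries (2309 and 2274 RPKM in queens). In queen-right workers most came from orb (963 and 1058 RPKM), which was lower in the active ovaries. The gene aub holds 2 of the 9 entries. Its strong entry was called higher in both active groups. Its weak entry, at most 4.98 RPKM in any library, was called lower in queen-less workers. The summed level of 10 muscle entries was 54.7 and 82.5 RPKM in queens, 214.6 and 237.4 in queen-less workers and 2824 and 3494 in queen-right workers, with 9 of 10 lower in queens, 8 of 10 lower in queen-less workers and TpnCIIb listed at 0 in the active ovaries. The summed level of 5 fat body entries was 12.1 and 33.7 RPKM in queens, 28.8 and 40.6 in queen-less workers and 290.9 and 418 in queen-right workers, and all 5 were lower in both active groups. That of 4 haemocyte entries was 1.65 and 2.02 RPKM in queens, 2.85 and 3.08 in queen-less workers and 34.2 and 38.0 in queen-right workers, and all 4 were lower in both. The 1 neuronal entry, Syt1, had 8.73 and 8.06 RPKM in queens, 13.9 and 10.03 in queen-less workers and 15.8 and 16.7 in queen-right workers. The part of this shift in the results that follow was not tested. In bulk tissue, fewer cells of a type and less RNA per cell cannot be told apart.

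Among the 6 genes only EcR was higher in both kinds of active ovary by the test, while the others were lower or did not pass it. The test was limma on scaled log2(RPKM + 1), with p-values adjusted by the Benjamini-Hochberg method over all tested entries and a threshold of 0.05. Fold changes on this scale understate changes of genes with low RPKM. Between queen-less and queen-right workers 2 of the 6 genes passed, EcR higher and ftz-f1 lower, where 67.6% of all entries were called, 30.6% higher and 37.0% lower. Between queens and queen-right workers 4 passed, EcR higher and Usp, ftz-f1 and Mblk-1 lower, where 71.8% of all entries were called, 31.3% higher and 40.6% lower. Between queens and queen-less workers none of the 6 passed, where limma called 1.48% of all entries, 0.0797% higher and 1.40% lower. At an unadjusted p under 0.05, 1 of them did, Mblk-1, as did 1425 of all 8778 entries. Scaled values did not overlap between queen-less and queen-right workers for 1 gene that was higher and 2 that were lower, where this held for 83.9% of all entries (37.5% higher and 46.4% lower). Between queens and queen-right workers it held for 1 higher and 4 lower genes, against 86.6% of all entries (37.9% higher and 48.8% lower). Between queens and queen-less workers it held for 3 lower genes, against 55.2% of all entries (20.7% higher and 34.5% lower). With so many entries called in the first 2 comparisons, the counts of the 6 genes do not stand apart from the background, and the values of the single genes carry the account.

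**Figure D1:**
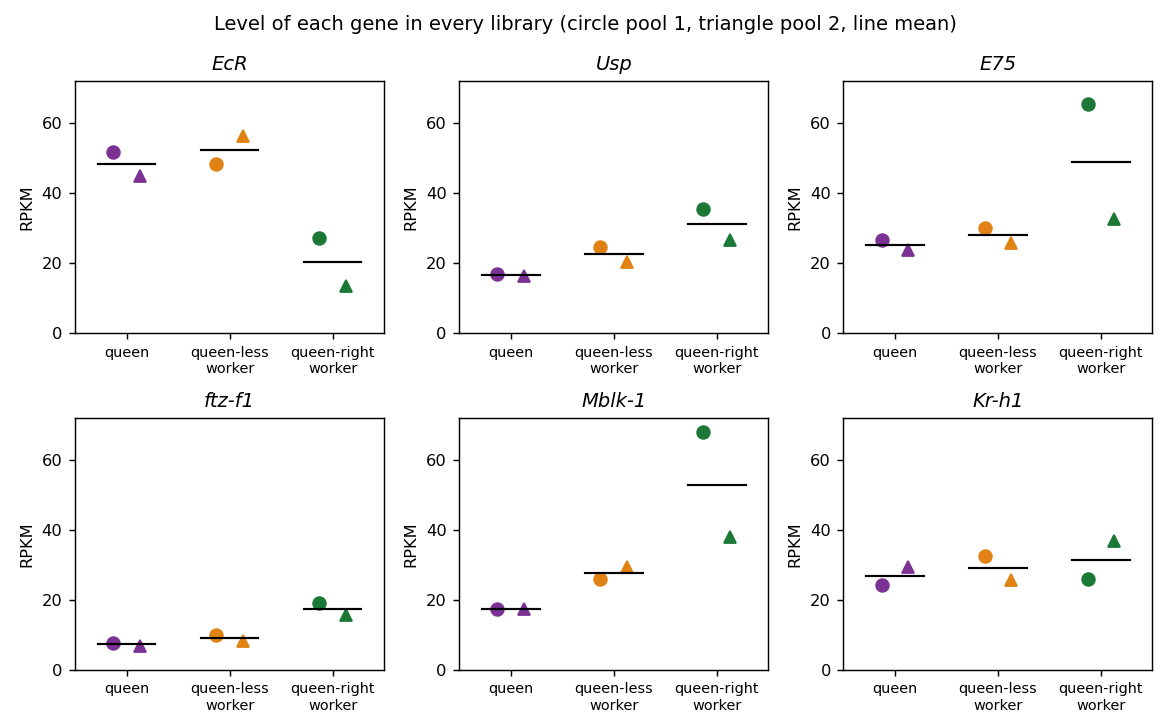
RPKM of each gene (y axis, the same scale in every panel) in the 2 pools of queens, queen-less workers and queen-right workers, with circles for pool 1, triangles for pool 2 and a line at the mean. EcR lies between 44.9 and 56.2 RPKM in the 4 active ovary libraries and at 27.2 and 13.3 RPKM in queen-right workers, while Mblk-1 has its highest values, 67.9 and 37.9 RPKM, in queen-right workers.

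EcR encodes the nuclear receptor that binds the active form of ecdysone. Its level was 51.6 and 44.9 RPKM in queens, 48.3 and 56.2 RPKM in queen-less workers and 27.2 and 13.3 RPKM in queen-right workers. The active ovaries of both castes overlapped with each other, and all of their 4 libraries lay above both queen-right libraries. Queen-less workers averaged 52.3 ± 5.62 RPKM and queen-right workers 20.2 ± 9.79 RPKM (SD, n = 2 pools each), a log2 fold change of 1.60 (SE 0.30, limma adjusted p = 0.00228). On the scale of scaled RPKM + 1 this was 3.02-fold higher. Queens averaged 48.3 ± 4.74 RPKM (SD, n = 2), and against queen-right workers their log2 fold change came to 1.49 (SE 0.30, limma adjusted p = 0.00276). Queens and queen-less workers differed by −0.10 (95% interval −0.81 to 0.60), which is within the error but too wide to show equal levels. This error takes in the queen-right pools, and with only the 4 libraries of these 2 groups the SE was 0.12 instead of 0.30. The size of the rise depended on the queen-right pools, since EcR was 2.04 times as high in pool 1 as in pool 2. Against pool 1 alone the log2 fold change was 1.07 in queen-less workers and 0.97 in queens, and against pool 2 alone it was 2.12 and 2.01. The spread of queen-right workers cannot be estimated from 1 pool, so only these sizes are given. Isoforms EcR-A and EcR-B1, known as synonyms of this gene in RefSeq, share the single entry and could not be read apart.

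Usp encodes the partner of EcR, the insect counterpart of the vertebrate retinoid X receptor. Its level was 16.7 and 16.3 RPKM in queens, 24.5 and 20.4 RPKM in queen-less workers and 35.6 and 26.6 RPKM in queen-right workers. The 3 kinds of ovary did not overlap in RPKM and stood in a step from queens up to queen-right workers, the kind in which EcR was lowest. After scaling, the queen-less and queen-right workers overlapped. Queens averaged 16.5 ± 0.35 RPKM and queen-right workers 31.1 ± 6.36 RPKM (SD, n = 2 each), a log2 fold change of −0.66 (SE 0.18, limma adjusted p = 0.0117). The value was −0.42 without queen-right worker pool 1 and −0.64 without queen pool 2. The call did not hold with the trimmed mean of log ratios as the scaling (−0.40, limma adjusted p = 0.0649). Nor did it hold with the trend over genomic span removed (−0.40, limma adjusted p = 0.05003). Queen-less workers had a log2 value of −0.25 against queen-right workers (95% interval −0.67 to 0.17, limma adjusted p = 0.248). It was −0.49 without queen-right pool 2 and −0.0125 without pool 1. Queens had a value of −0.41 against queen-less workers (95% interval −0.83 to 0.01).

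The ratio of EcR to Usp, 2 proteins that work as a pair, sets both genes against each other in every library. A factor that multiplies RPKM + 1 for all genes of a library, as the authors' factors do, does not alter it. A shared factor on RPKM itself cancels only without the added 1. Computed on RPKM + 1, it was 2.97 and 2.66 in queens, 1.93 and 2.68 in queen-less workers and 0.77 and 0.52 in queen-right workers. In RPKM, EcR thus lay above Usp in all 4 active libraries and below it in both queen-right libraries. Which gene lies above depends on the lengths behind RPKM, which were not available. Against queen-right workers, the mean log2 ratio was higher by 1.85 in queen-less workers, a 3.60-fold difference, and by 2.15 in queens, a 4.44-fold difference. Without the added 1 the log2 differences were 1.91 in queen-less workers and 2.24 in queens. With 2 pools against 2, an exact two-sided permutation test cannot give a p below 0.333, and both differences reached that value. The ratio is of RNA and gives no measure of protein.

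**Figure D2:**
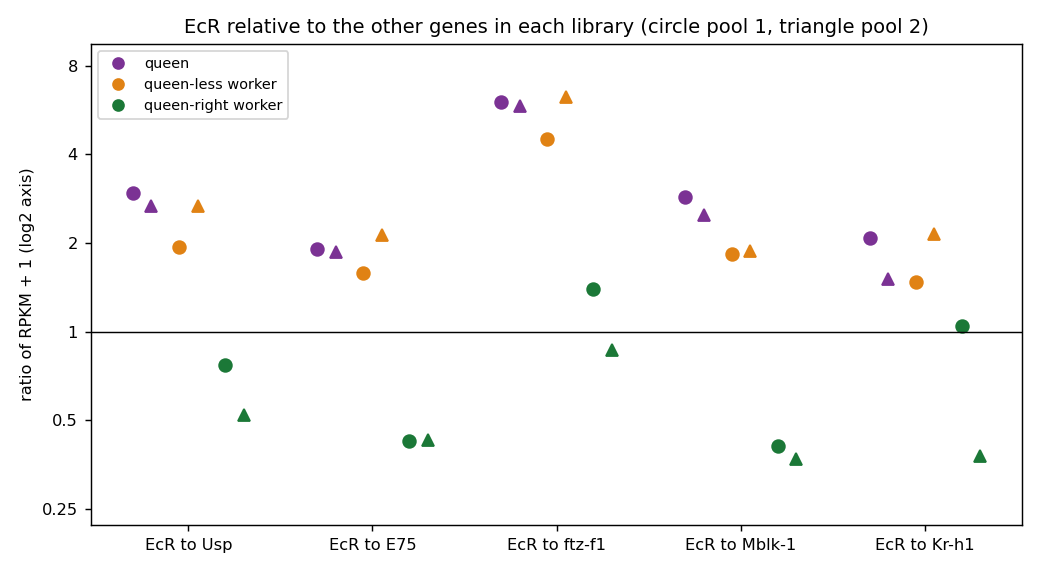
Ratio of EcR to each of the other 5 genes in every library, computed on RPKM + 1 and drawn on a log2 axis, with circles for pool 1 and triangles for pool 2. The ratio of EcR to E75 is 0.42 and 0.43 in the queen-right pools, against 1.86 to 1.91 in queens and 1.58 to 2.13 in queen-less workers.

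E75 encodes a nuclear receptor that is an early ecdysone target in Drosophila. Its level was 26.6 and 23.7 RPKM in queens, 30.2 and 25.8 RPKM in queen-less workers and 65.4 and 32.5 RPKM in queen-right workers. The queen-right pools were 2.01-fold apart, and after scaling pool 2 overlapped with the queen-less workers but not with the queens. The log2 value was −0.51 in queen-less against queen-right workers (95% interval −1.21 to 0.19, limma adjusted p = 0.163) and −0.65 in queens against queen-right workers (95% interval −1.35 to 0.05, limma adjusted p = 0.0828). Neither passed the threshold, and the intervals leave room for a fall of more than 2-fold as well as for no change. Without queen-right pool 2 the values were −1.04 and −1.18, whereas without pool 1 they were 0.013 and −0.13. A single pool therefore decides what E75 shows. In both queen-right pools, however, E75 kept the same proportion to EcR, with a ratio of EcR to E75 of 0.42 in pool 1 and 0.43 in pool 2. This was not particular to E75, since the ratio of EcR to Mblk-1 was 0.41 and 0.37 in these pools. The ratios of EcR to Usp, ftz-f1 and Kr-h1 lay farther apart.

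The spread of the queen-right pools was large for 3 of the 6 genes. On the log2 scale after scaling, pool 1 exceeded pool 2 by 1.05 for EcR, 1.05 for E75 and 0.90 for Mblk-1, against a median difference of 0.21 over all entries. Only 217 of the 8778 entries (2.47%) were more than 1 apart in these pools. Usp and ftz-f1 were also higher in pool 1, by 0.48 and 0.35, and Kr-h1 was lower, with −0.42. In queens and queen-less workers no gene of the 6 was more than 0.31 apart between pools. Between the same queen-right pools, the fat body sum was higher in pool 1 and the muscle, haemocyte and germline sums were higher in pool 2, and their part in the spread was not tested.

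ftz-f1 encodes a nuclear receptor that in Drosophila gives tissues the competence to respond to the next ecdysone pulse and is also needed in the ovary. The entry is named LOC726450 in the current RefSeq table. It had the lowest mean level of the 6 genes in every kind of ovary, although EcR was lower still in queen-right pool 2. Its level was 7.75 and 6.85 RPKM in queens, 9.93 and 8.10 RPKM in queen-less workers and 19.1 and 15.6 RPKM in queen-right workers. Neither active group overlapped with the queen-right workers. Queen-less workers had a log2 fold change of −0.68 (SE 0.19, limma adjusted p = 0.0150) and queens one of −0.94 (SE 0.19, limma adjusted p = 0.00297). On the scale of scaled RPKM + 1 these are 1.60-fold and 1.92-fold differences. With 1 library left out, the value in queens lay between −1.12 and −0.77. In queen-less workers the call did not hold with the trimmed mean of log ratios as the scaling (−0.47, limma adjusted p = 0.0540). There the value was −0.56 without queen-less pool 2 and −0.51 without queen-right pool 1.

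Mblk-1 encodes a transcription factor first described in large Kenyon cells of the honeybee brain and is the counterpart of Drosophila E93, which acts late in the ecdysone cascade. Its level was 17.4 and 17.5 RPKM in queens, 25.8 and 29.4 RPKM in queen-less workers and 67.9 and 37.9 RPKM in queen-right workers. The 3 kinds of ovary did not overlap and formed a step, with queens lowest. Queens averaged 17.4 ± 0.092 RPKM and queen-right workers 52.9 ± 21.2 RPKM (SD, n = 2 each), a log2 fold change of −1.29 (SE 0.26, limma adjusted p = 0.00281), the largest fall among the 6 genes. It was −0.84 without queen-right pool 1 and −1.74 without pool 2. In queen-less workers, with a mean of 27.6 RPKM, the log2 value was −0.67 against queen-right workers (95% interval −1.27 to −0.06, limma adjusted p = 0.0527), just short of the threshold. It became −1.11 without queen-right pool 2 and was −0.22 without pool 1. The difference between queens and queen-less workers was −0.62 (95% interval −1.23 to −0.02), which did not pass over all entries (limma adjusted p = 0.297). This error takes in the queen-right pools. With only the 4 libraries of these 2 groups the SE was 0.12 instead of 0.26 (limma adjusted p = 0.0885). Mblk-1 was thus not shown to differ between the active ovaries.

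Kr-h1 encodes a zinc finger protein that is induced by juvenile hormone. Its level was 24.2 and 29.4 RPKM in queens, 32.6 and 25.7 RPKM in queen-less workers and 25.9 and 36.8 RPKM in queen-right workers, and all 3 groups overlapped. The log2 value was 0.10 in queen-less against queen-right workers (95% interval −0.33 to 0.53), −0.01 in queens against queen-right workers (95% interval −0.44 to 0.43) and −0.11 in queens against queen-less workers (95% interval −0.54 to 0.33). None passed the threshold (limma adjusted p = 0.649, 0.978 and 0.811), and the sign turned between scalings in both comparisons with queen-right workers. The intervals do not reach a 2-fold change in either direction. After removal of a trend of the libraries with the genomic span of the gene model, introns included, the value in queen-less against queen-right workers was 0.51 and passed (limma adjusted p = 0.0486). Kr-h1 has the shortest gene model of the 6. The ratio of Mblk-1 to Kr-h1, on RPKM + 1, was 0.73 and 0.61 in queens, 0.80 and 1.14 in queen-less workers and 2.56 and 1.03 in queen-right workers, with the queen-right pools far apart and only the queens clear of both.

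**Figure D3:**
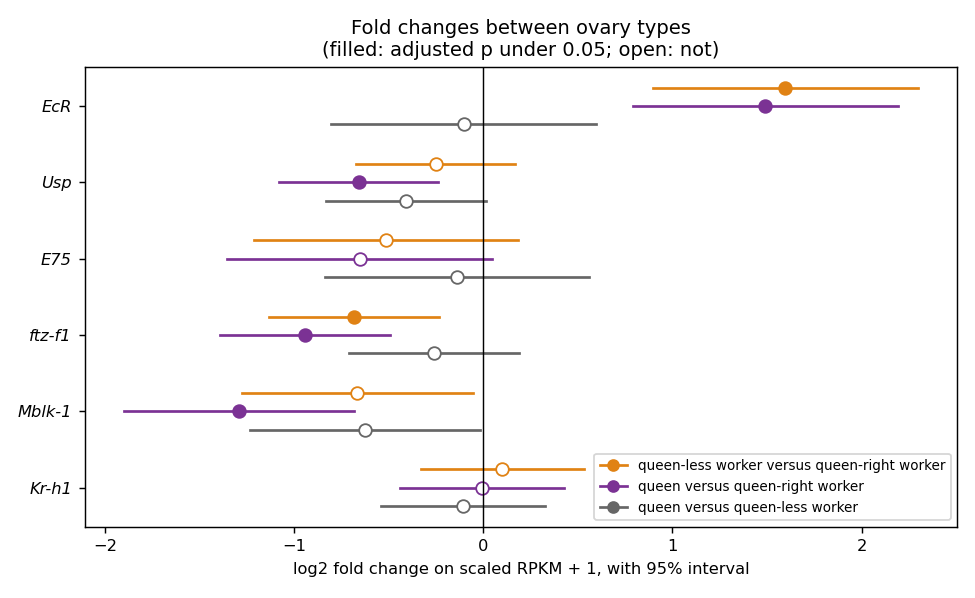
Log2 fold changes of the 6 genes (x axis, scaled RPKM + 1) in the 3 comparisons, with 95% intervals from limma and filled points where the adjusted p is under 0.05. EcR is the only gene with filled points right of 0, at 1.60 and 1.49, and the intervals of Kr-h1 lie on both sides of 0 in every comparison.

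The order of the 6 genes by level also differed between the ovaries. In queens EcR was highest at 48.3 RPKM, followed by Kr-h1 at 26.8, E75 at 25.1, Mblk-1 at 17.4, Usp at 16.5 and ftz-f1 at 7.30 RPKM. In queen-less workers the order of the means was the same, with EcR at 52.3 RPKM, Kr-h1 at 29.1, E75 at 27.99, Mblk-1 at 27.6, Usp at 22.4 and ftz-f1 at 9.02 RPKM. Between EcR and the next gene the gap exceeded the pool spread in both active ovaries, but Kr-h1 and E75 overlapped in queens, and Kr-h1, E75 and Mblk-1 overlapped in queen-less workers. In queen-right workers Mblk-1 and E75 led with 52.9 and 49.0 RPKM, before Kr-h1 at 31.4, Usp at 31.1, EcR at 20.2 and ftz-f1 at 17.4 RPKM, and all 5 neighbouring pairs in this order overlapped across pools. Within each queen-right library, Mblk-1 was above E75 and Usp above EcR, whereas the other neighbouring pairs changed order between the pools. EcR was thus above 80.3% of all tested entries in queens and 82.4% in queen-less workers, but above 52.0% in queen-right workers. Mblk-1 was above 53.2% in queens, 65.0% in queen-less workers and 83.5% in queen-right workers.

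**Figure D4:**
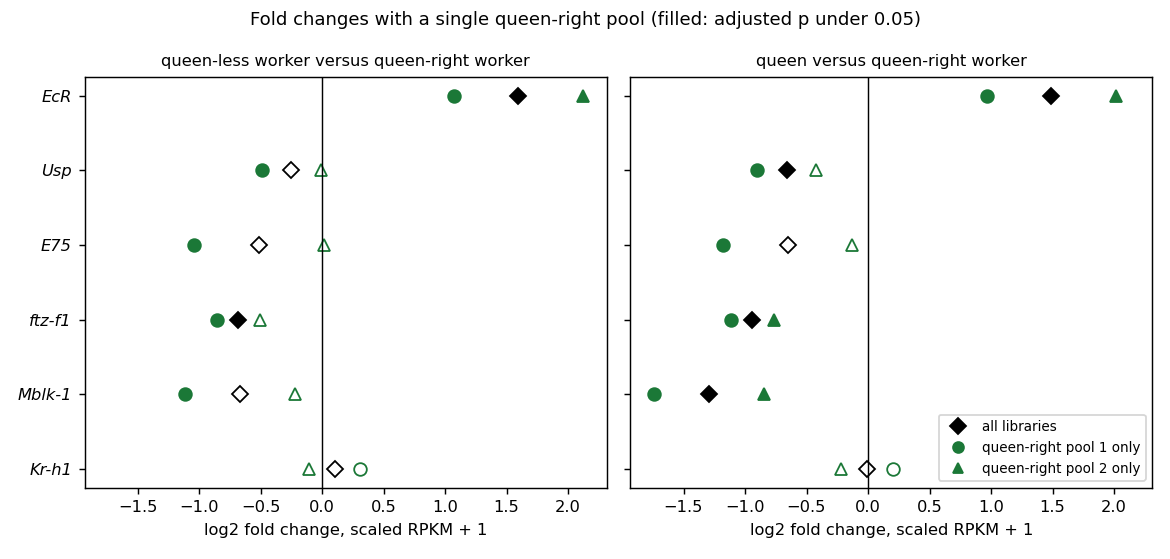
Log2 fold changes (x axis, scaled RPKM + 1) of the 6 genes with all libraries (diamonds) and with queen-right pool 1 only (circles) or pool 2 only (triangles), filled where the adjusted p is under 0.05. With a single queen-right pool the error comes only from the other groups, so the filling of circles and triangles takes no account of queen-right spread. EcR stays right of 0 in every case, whereas E75 in queen-less workers lies at −1.04 with pool 1 only and at 0.013 with pool 2 only.

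Over the 6 libraries the profiles of Usp, E75, ftz-f1 and Mblk-1 were alike and that of EcR stood apart. As a measure of likeness, the root mean square difference of the centred log2 profiles was between 0.19 (Usp and ftz-f1) and 0.31 (Usp and Mblk-1) among these 4 genes, and between 0.85 and 1.21 for EcR against each other gene. The 6 libraries are 3 groups of 2, so this measure mixes differences between kinds of ovary with differences between pools of a kind. For Kr-h1, whose group means lay close together, it describes mostly the pools. Pool 1 minus pool 2 was −0.27 in queens, 0.31 in queen-less workers and −0.42 in queen-right workers. For E75 the queen-right pools, 1.05 apart, also weigh heavily. The tested entry closest to EcR was LOC100577709 at 0.06, with 61.1 and 50.1 RPKM in queens, 61.8 and 64.6 RPKM in queen-less workers and 31.4 and 16.3 RPKM in queen-right workers, followed by LOC725732 at 0.11. The entries closest to Usp were LOC410614 at 0.08 and LOC100577986 at 0.09, and those closest to E75 were LOC726857 at 0.13 and LOC551123 at 0.14. ftz-f1 was closest to CadN, a neural cadherin, at 0.05 and to LOC724205 at 0.05. Mblk-1 was closest to LOC100579000 at 0.10 and to LOC552101 at 0.11. Kr-h1 was closest to Gapdh, a glycolytic enzyme often used as a reference, at 0.08, and to LOC100576392 at 0.08. Gapdh had 305.3 and 322.9 RPKM in queens, 381 and 326.2 in queen-less workers and 336.1 and 422 in queen-right workers.

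On the scaffolds of the authors' assembly, whose build is not given in the sources used here, 5 of the 6 genes span long stretches. E75 lies on NW_003378054 from 1126096 to 1205138 (79043 bp), EcR on NW_003378103 from 72051 to 137115 (65065 bp) and ftz-f1 on NW_003377856 from 1275403 to 1339417 (64015 bp). Mblk-1 lies on NW_003378039 from 1433200 to 1471068 (37869 bp) and Usp on NW_003377999 from 1625928 to 1657260 (31333 bp). These spans, introns included, exceed those of 91.4% to 96.9% of the tested entries. Kr-h1 is the exception, with 1387 bp on NW_003378589 from 3851 to 5237, where it is the only entry. The current RefSeq table lists a longer gene for Kr-h1, so its level is that of the modelled part, and its place in the order of levels rests on this short model. No other entry overlapped any of the 6 models.

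The enzymes that make and inactivate ecdysteroids were followed from a list of 6 genes matched by symbol, of which 5 were tested. In queen-less against queen-right workers 3 were called higher and 1 lower, and the same counts held in queens against queen-right workers, where 67.6% and 71.8% of all entries were called. The list had a median log2 fold change of 1.34 and 1.29 against −0.13 and −0.19 over all entries. Cyp314a1, the shade enzyme that converts ecdysone into its active form, had 235.0 and 238.1 RPKM in queens, 215.4 and 230.2 RPKM in queen-less workers and 48.6 and 28.99 RPKM in queen-right workers. The groups of active ovaries lay far above the queen-right workers, and its log2 fold change was 2.73 in queen-less workers (SE 0.23, limma adjusted p = 4.32e-05) and 2.82 in queens (SE 0.23, limma adjusted p = 2.72e-05). As for EcR, pool 1 of the queen-right workers was higher than pool 2. CYP315A1, which acts just before it in the pathway, rose by 1.34 in queen-less workers and by 1.40 in queens. CYP18A1, which inactivates the hormone in Drosophila, had log2 fold changes of 1.62 and 1.29 but never exceeded 2.07 RPKM and was listed at 0 in queen-right pool 2. CYP302A1, which acts before CYP315A1, was lower, at 8.25 and 9.48 RPKM in queens and 16.4 and 12.5 RPKM in queen-less workers, against 24.9 and 22.2 RPKM in queen-right workers (log2 fold changes of −1.12 in queens and −0.48 in queen-less workers). CYP306A1 did not pass in either comparison. CYP307B1, which belongs to the family of the early step, was under 1 RPKM in every library and was not tested.

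Of 16 other genes of the ecdysone cascade and nuclear receptors, 13 were tested. In queen-less against queen-right workers 8 were called higher and 2 lower, and in queens against queen-right workers 8 were called higher and 3 lower, where 67.6% and 71.8% of all entries were called, and the median log2 fold change was 0.89 in both. E74, an ETS factor and early ecdysone gene, had 46.1 and 52.1 RPKM in queens, 51.9 and 52.6 RPKM in queen-less workers and 24.1 and 21.7 RPKM in queen-right workers. Its log2 fold change was 1.35 in queen-less workers (SE 0.12, limma adjusted p = 6.23e-05) and 1.27 in queens (SE 0.12, limma adjusted p = 6.44e-05), unlike E75, which did not pass. Br-c, the broad zinc finger factor, had 5.80 and 4.76 RPKM in queens, 5.35 and 6.37 RPKM in queen-less workers and 4.09 and 1.96 RPKM in queen-right workers, with log2 fold changes of 1.01 in queen-less workers (limma adjusted p = 0.0190) and 0.89 in queens (limma adjusted p = 0.0292). The nuclear receptor with the largest change was Err, the estrogen-related receptor, known in Drosophila for its role in energy metabolism, with log2 fold changes of 2.36 in queen-less workers and 2.42 in queens. It had 222.2 and 208.5 RPKM in queens and 195.8 and 218.7 RPKM in queen-less workers, against 54.5 and 37.7 RPKM in queen-right workers. Hr96 rose by 1.26 in queen-less workers and by 1.61 in queens. Hr46, the counterpart of Drosophila Hr3, and Tll also rose, Hr46 by 1.02 in queen-less workers and 0.87 in queens and Tll by 1.27 and 1.37, but both stayed under 3 RPKM. Hr51 was lower, with a log2 fold change of −1.15 in queen-less workers and −1.57 in queens, and reached no more than 3.21 RPKM. Blimp-1 was listed at 0 in all 6 libraries.

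The juvenile hormone lists were smaller, and Met and its partner taiman were not matched by symbol. Of 4 genes for synthesis and clearance 3 were tested, and in each comparison with queen-right workers 1 was called lower and none higher, where 37.0% of all entries were called lower in queen-less workers and 40.6% in queens. Jhe, an esterase that degrades juvenile hormone, was at 0.36 and 0.72 RPKM in queens and 0.52 and 0.91 RPKM in queen-less workers, against 9.56 and 9.23 RPKM in queen-right workers (log2 fold changes of −2.56 in queens and −2.42 in queen-less workers). jhamt, the last methylation step, was under 1 RPKM in every library and was not tested. All 3 of the matched cofactors passed, as did 67.6% of all entries in queen-less workers and 71.8% in queens. FKBP59, an immunophilin, and Hsp90 were higher in both active ovaries, FKBP59 by 1.75 in queen-less workers and 1.95 in queens. Chd64, which binds juvenile hormone response elements in Drosophila and is a calponin-like protein, was lower, with −2.12 in queen-less workers and −2.84 in queens. Chd64 is related to muscle proteins, and the muscle sum moved the same way, but the part of muscle RNA in Chd64 was not tested. Of the carriers, Rfabg, the main lipoprotein of insect blood, fell by 6.40 in queen-less workers and by 8.61 in queens. It had 1.97 and 0.85 RPKM in queens and 10.5 and 9.22 RPKM in queen-less workers, against 1160 and 947 RPKM in queen-right workers. JHBP-1 fell by 2.14 in queens and did not pass in queen-less workers, where the pools had 5.93 and 1.25 RPKM. The fat body sum was also highest in queen-right workers, and the part of fat body RNA in Jhe, Rfabg and JHBP-1 was not tested.

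Over all 5 lists, 19 of 26 tested genes passed in queen-less against queen-right workers, 13 higher and 6 lower, and 21 of 26 in queens against queen-right workers, 13 higher and 8 lower, against 67.6% and 71.8% of all entries in the same comparisons. In queens against queen-less workers 1 of 26 passed, Rfabg, which was lower by a log2 value of −2.20 (limma adjusted p = 0.00614), against 1.48% of all entries. Both comparisons with queen-right workers share the same 2 libraries, so their likeness is in part fixed by them.

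**Figure D5:**
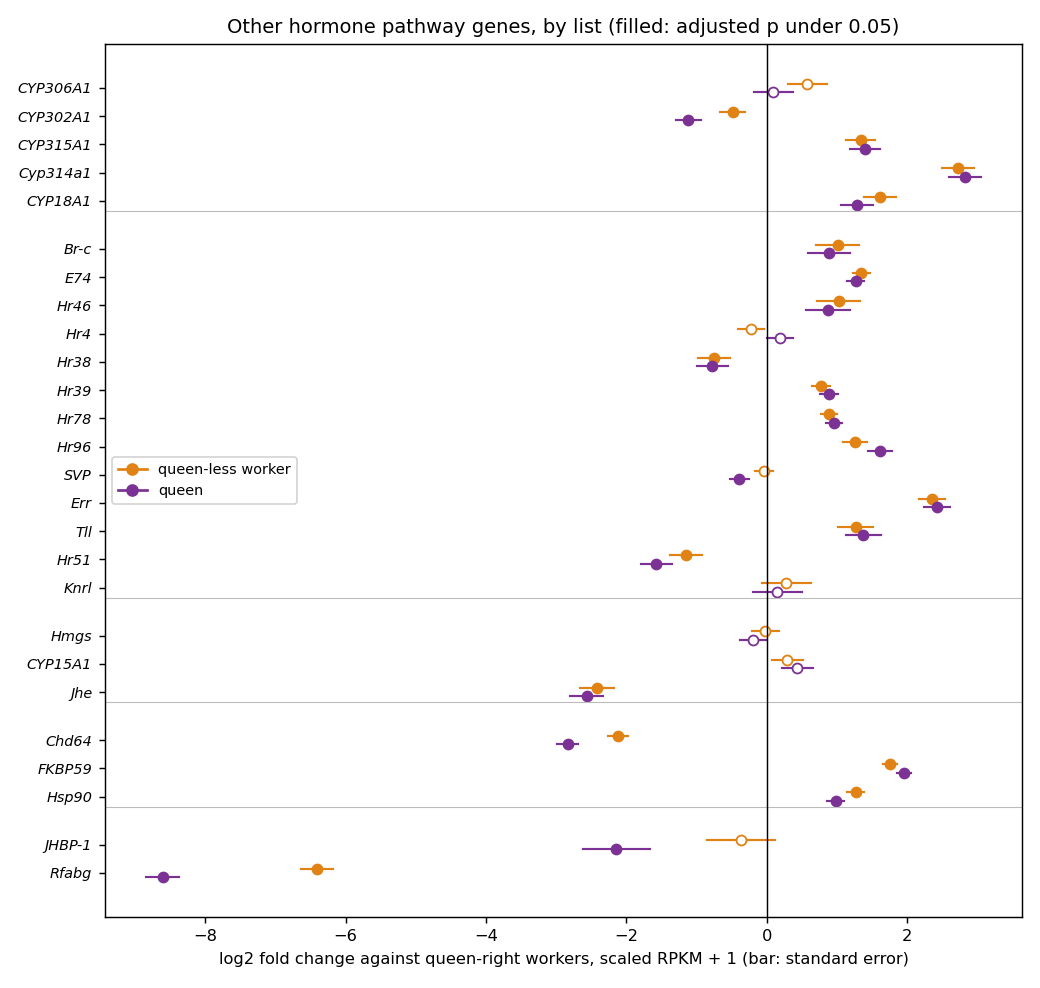
Log2 fold changes against queen-right workers (x axis, scaled RPKM + 1, with standard errors) of the 26 tested genes of the 5 hormone lists, in queen-less workers and queens, filled where the adjusted p is under 0.05. From top to bottom the blocks are ecdysteroid enzymes, ecdysone cascade and nuclear receptors, juvenile hormone enzymes, juvenile hormone cofactors and carriers. Cyp314a1 (2.73 and 2.82) and Err (2.36 and 2.42) lie farthest right, and Rfabg (−6.40 and −8.61) farthest left.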

How the data were processed

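Ovary RNA was made into libraries by standard Illumina protocols. The authors deposited RPKM per library and gene entry, and a normalized signal that equals RPKM + 1 times 1 factor per library (0.856 to 1.01), which was used to recover these factors. The aligner, the counting program and the genome build are not given in the sources used here. Columns with the authors' own adjusted p-values for the comparisons of ovary types, the columns of means and 12 further columns of per-sample values were not used. Samples were grouped by their source labels. limma 3.58.1 in R 4.3.3 was run on log2((RPKM + 1) × factor), letting the variance follow the mean level, in 1 fit of all 6 libraries with a mean for each kind of ovary. An entry was kept where 2 or more libraries reached 1 RPKM, and p was adjusted over the kept entries (Benjamini-Hochberg). The model was tested on simulated data.

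The members and lists were chosen with earlier results of these data known. Of the gene IDs, 8962 matched the RefSeq table of Amel_HAv3.1, used for names only. The 5 lists (31 genes) and the marker lists were matched by symbol, and symbols that name more than 1 insect gene (Phm, pnr) were left out, and 1 further list gene is not reported here. Named genes are all members, per list up to 6 called genes with the largest change plus its best-known gene, and per member the 2 entries with the closest profile. CYP306A1, CYP307B1 and Blimp-1 were named after their values were seen. Alternatives were tried for scaling, pseudocount, filter, variance trend, libraries in the fit and the replicate block.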

Additional observations from a re-analysis of the deposited data

How the results depend on the processing

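Across 13 other settings of scaling, pseudocount, filter, variance model, libraries in the fit and replicate block, EcR stayed higher and past the threshold in both comparisons with queen-right workers, with log2 values of 1.40 to 1.81 in queen-less workers and 1.29 to 1.76 in queens. Leaving out 1 library at a time, where the lone pool is assumed to vary like the other groups, gave 1.07 to 2.12 and 0.97 to 2.01. Mblk-1 in queens passed in 13 of 13 settings (−1.49 to −1.02; −1.74 to −0.84 with a library left out), and so did ftz-f1 in queens (−1.14 to −0.67; −1.12 to −0.77). For queen-less against queen-right workers, the median of all entries was −0.13, −0.32 with unscaled RPKM and 0.08 with the trimmed mean of log ratios. Relative to that median, scalings by 1 factor per library give the same value by construction, 1.73 for EcR and −0.55 for ftz-f1. With quantile normalization these values were 1.60 and −0.53, and with the genomic-span trend removed 1.68 and −0.60.

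Of the 12 values of single genes against queen-right workers, 7 crossed the threshold under at least 1 alternative, and the cause was not tested except where 1 library decides. Between queens and queen-right workers, E75 passed with quantile normalization (−0.83), the replicate block (−0.65) and unscaled RPKM (−0.85), and ranged from −1.18 to −0.13 with a library left out. Usp did not pass with the trend over genomic span removed (−0.40) or the trimmed mean (−0.40), and ranged from −0.90 to −0.42. Kr-h1 turned to 0.45 with the genomic-span trend removed and 0.26 with the trimmed mean, and ranged from −0.22 to 0.20. Between queen-less and queen-right workers, ftz-f1 did not pass with the trimmed mean (−0.47) and ranged from −0.86 to −0.51. Mblk-1 passed with mean RPKM of at least 5 or at least 1 RPKM in every library (−0.67 each), the crossed block (−0.67), quantile normalization (−0.86) and unscaled RPKM (−0.86), and ranged from −1.11 to −0.22. Usp passed with unscaled RPKM (−0.44) and ranged from −0.49 to −0.0125. Kr-h1 passed with the genomic-span trend removed (0.51), turned to −0.0420 with quantile normalization and −0.0919 with unscaled RPKM, and ranged from −0.11 to 0.31. E75 ranged from −1.04 to 0.0130 and passed in none of the 13 other settings. It counts among the 7 only through the fit without queen-right pool 2, whose error takes no account of queen-right spread. Between queens and queen-less workers, with the genomic-span trend removed, E75 turned to 0.0501 and EcR to 0.0836. With a library left out EcR ranged from −0.22 to 0.0145 and Kr-h1 from −0.26 to 0.0460.

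Of all entries, 5930 and 6304 passed in queen-less workers and in queens, each against queen-right workers, 2686 and 2744 of them higher. With the trimmed mean 3206 of 5809 and 3402 of 6301 were higher, and with unscaled RPKM 2204 of 6085 and 2303 of 6461. Between queens and queen-less workers the 130 entries became 40 without a filter, 42 with only the 4 libraries of these groups, 72 with the replicate block, 225 with the crossed block, 78 with quantile normalization and 35 to 85 with a library left out. Fewer libraries leave fewer degrees of freedom. Same-numbered libraries deviated with correlations of −0.13 for queen-less with queen-right workers, −0.0862 for queens with queen-right workers and 0.0614 for queens with queen-less workers, so the numbers do not pair them, and the replicate block gave 5704, 6172 and 72 entries. The crossed block, which exchanges the queen-right numbers, and the filter that asks 1 RPKM of every library were chosen after seeing the data. The crossed block gave 6096, 6477 and 225 entries. Depth is unknown, so counting error of the low genes could not be given.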
